A study of Mus musculus with 12 samples.

Results

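The urea cycle and ammonia genes of mouse liver were followed as 8 members chosen by name, of 23420 genes in the count tables: Cps1, Otc, Ass1, Asl, Arg1, Nags, Slc25a15 and Gls2. All 8 have a row in each of the 12 libraries, and 7 of them had enough reads to be tested. The samples were whole livers of C57BL/6 mice carrying floxed alleles of Gdown1, a protein that binds RNA polymerase II and is encoded by Polr2m. FF livers are Gdown1 flox/flox and KO livers are flox/flox with Alb-Cre, a Cre recombinase driven by the albumin promoter in hepatocytes, and both groups were taken at 7 weeks with p53 present. The p53KO (flox/flox, p53-/-) and DKO (flox/flox, Alb-Cre, p53-/-) livers were taken at 8 weeks. The remaining pair, p53KO TAM and DKO TAM, is p53 null too and was collected 24 hours after tamoxifen, which activates the Cre of the DKO TAM mice (Alb-CreERT2). The genotype given for p53KO TAM names no Cre, and the age of the tamoxifen groups is not given in the sources used here. Each group has 2 libraries, and whole liver also holds cells in which the albumin promoter is not active. Cre is present wherever Gdown1 is deleted, so effects of Cre and of Gdown1 loss cannot be told apart.

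The urea cycle turns toxic ammonia into urea and runs almost entirely in hepatocytes, mainly those near the portal vein. Inside mitochondria, carbamoyl phosphate synthetase (Cps1) captures ammonia, activated by N-acetylglutamate that Nags makes, and ornithine transcarbamylase (Otc) joins the product to ornithine to give citrulline. The carrier encoded by Slc25a15 brings ornithine in and citrulline out. In the cytosol, argininosuccinate synthetase (Ass1) and lyase (Asl) make arginine, which arginase (Arg1) splits into urea and ornithine. Gls2, the liver glutaminase, releases ammonia from glutamine in the same mitochondria. Hepatocytes around the central vein take up ammonia that escapes the cycle and store it in glutamine through glutamine synthetase (Glul).

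RefSeq promoter windows (GRCm38.p6) were matched for 4 members, Otc, Nags, Slc25a15 and Ass1. The 250 bases upstream of the start are shown for Otc, which had the largest change of the 7 tested members when Gdown1 was deleted without p53, and for Nags and Slc25a15, which had the smallest. They are read 5′ to 3′ on the strand of the gene, chrX:10252055-10252304 (plus), chr11:102145263-102145512 (plus) and chr8:22398622-22398871 (minus). Capitals mark matches, on either strand, to any of 6 motifs: TATAAA as the TATA box, CCAAT as the CAAT box, TTGCNNAA as a core of C/EBP sites, CAAAG as part of HNF4 sites, GGGCGG as the Sp1 box and TGACG as part of CREB sites.
Otc: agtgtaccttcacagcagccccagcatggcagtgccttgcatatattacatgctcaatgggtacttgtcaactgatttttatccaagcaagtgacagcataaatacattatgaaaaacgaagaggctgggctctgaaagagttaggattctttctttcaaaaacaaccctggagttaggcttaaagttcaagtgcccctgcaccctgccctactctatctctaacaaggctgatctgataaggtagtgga
Nags: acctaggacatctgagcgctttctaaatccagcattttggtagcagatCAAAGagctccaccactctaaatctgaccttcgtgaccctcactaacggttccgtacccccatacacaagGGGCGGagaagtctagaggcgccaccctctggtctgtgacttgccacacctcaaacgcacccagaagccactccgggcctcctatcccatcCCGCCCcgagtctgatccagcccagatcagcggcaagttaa
Slc25a15: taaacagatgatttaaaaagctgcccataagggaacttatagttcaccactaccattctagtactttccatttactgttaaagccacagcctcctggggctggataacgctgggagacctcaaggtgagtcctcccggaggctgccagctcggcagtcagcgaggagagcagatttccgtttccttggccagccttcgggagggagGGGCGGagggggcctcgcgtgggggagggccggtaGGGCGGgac
The Otc window holds no match. In the Nags window CAAAG lies from -202 to -198 and GGGCGG from -132 to -127 and, on the other strand, from -41 to -36, counted from the start site. The Slc25a15 window holds GGGCGG from -44 to -39 and from -9 to -4. No match in these windows overlaps another. Of 32851 RefSeq windows of this length, 32.7% hold GGGCGG and 48.6% CAAAG. The other 4 motifs are in 12.4% (TATAAA), 33.8% (CCAAT), 9.56% (TTGCNNAA) and 17.8% (TGACG) of windows. GGGCGG stands in 4 of the 5 windows of members (Slc25a15 has 2), CAAAG in 1, and the other motifs in 0.

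Ass1 cannot be read from these counts. It received between 0 and 4 reads in every library, although its enzyme stands in the middle of the cycle. The gene lies at chr2:31470270-31520670 (mm10, plus strand) and is annotated there with 16 exons. In the annotation carried by the files, a second gene, Gm5424, covers 1552 of its 1631 exonic bases (95.2%), and Gm5424 has 0 reads in all 12 libraries. The headers of 4 files show counting with featureCounts and no option for reads that fall on more than 1 gene, which that program then leaves unassigned. No level or fold change of Ass1 is therefore given.

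The other members lie at chr1:67123066-67230448 (Cps1, plus), chrX:10252359-10321024 (Otc, plus), chr5:130011503-130024331 (Asl, minus), chr10:24915207-24927470 (Arg1, minus), chr11:102145513-102149528 (Nags, plus), chr8:22375550-22398621 (Slc25a15, minus) and chr10:128194635-128210004 (Gls2, plus), all in mm10. Counts were summed over all exons of a gene, untranslated ones included. Of Gls2, 95 of 2460 exonic bases are shared with Spryd4, and the other 6 share none.

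Per gene length, Cps1, Arg1 and Otc had the highest means, in that order, in all 6 groups. Levels per length are in FPKM, which is the CPM (a gene's count per size-scaled library) divided by its exonic length in kilobases, both scaled by TMM. Cps1 stood at 1444 ± 223 FPKM in FF and 1726 ± 74.1 in p53KO livers (SD, n = 2 here and below), followed by Arg1 at 729.9 ± 65.2 and 826.9 ± 41.1 and Otc at 461 ± 86.0 and 419.7 ± 50.2. Asl, Slc25a15 and Gls2 came next, between 112 and 173 FPKM in these controls, and their libraries overlapped in FF but not in p53KO livers. Nags, the enzyme that makes only the activator, was the lowest tested member, at 24.7 ± 2.87 and 19.3 ± 3.04 FPKM. In DKO livers Otc (94.7 ± 4.28 FPKM) and Slc25a15 (94.3 ± 6.55) overlapped, whereas Otc was above Slc25a15 in every library of the other 5 groups.

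**Figure D1:**
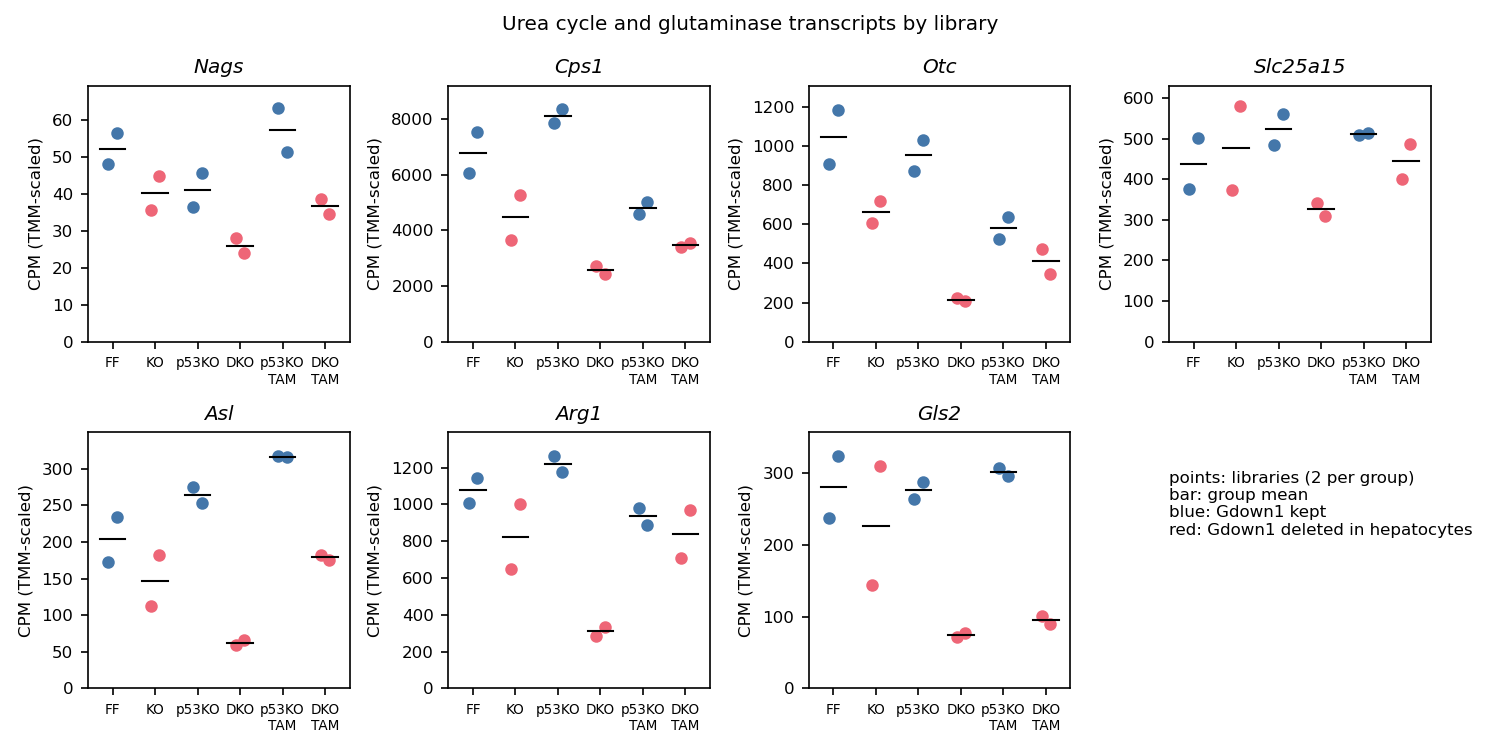
Level of each tested member (y axis, TMM-scaled CPM, from 0) in the 6 groups (x axis), with 1 point per library, a bar at the mean of 2 and red for deleted Gdown1. Cps1, Otc, Asl, Arg1 and Gls2 are lowest in the DKO libraries, Gls2 is next lowest in DKO TAM, and the DKO libraries are also the lowest for Nags and Slc25a15.

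Library totals were 4939408 to 8776369 counts. The 13693 genes with enough reads to be tested held 99.9% of them. The 8 members took 0.913% to 0.973% of all counts in p53KO and 0.487% to 0.525% in DKO livers. Their share was 0.789% to 0.938% in FF against 0.597% to 0.824% in KO livers, and in the tamoxifen pair 0.633% to 0.656% against 0.58% to 0.618%. The titles of 8 libraries carry a further number each, but no label says that it names an animal or that replicates are separate animals, so a p-value here reflects only how far these libraries spread, which may be technical. Polr2m, the deleted gene, stood at 98.5 ± 2.54 CPM in FF and 62.0 ± 3.75 in KO, at 95.9 ± 9.63 in p53KO and 58.9 ± 1.35 in DKO, and at 77.2 ± 1.99 and 60.2 ± 8.03 in the control and deleted tamoxifen groups. CPM and fold changes use TMM scaling, which takes most genes as unchanged. Scaling by library totals moves the all-gene median of log2 fold changes from 0.02 to 0.28 for KO against FF, from 0.01 to 0.78 for DKO against p53KO and from 0.01 to 0.36 for DKO TAM against p53KO TAM. On that scale Polr2m itself was at 0.07 for DKO against p53KO (adjusted p = 0.65) and -0.01 for DKO TAM against p53KO TAM (0.97), against -0.70 ± 0.13 (0.00024) and -0.36 ± 0.13 (0.063) with TMM. Adjusted p-values are from edgeR's quasi-likelihood test with Benjamini-Hochberg adjustment over all tested genes, 0.05 was the threshold for a call, and ± after a log2 fold change is its SE.

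KO against FF livers show what goes with hepatocyte deletion of Gdown1 while p53 is present. Cps1 and Otc, the enzymes of the mitochondrial steps of the cycle, fell 1.52-fold and 1.58-fold. The other 5 tested members did not pass, with log2 fold changes from -0.47 for Asl to 0.12 for Slc25a15. In this comparison 7.88% of all tested genes were called lower and 6.92% higher, so 2 of 7 members lower stand beside a background of 7.88%. None was called higher by edgeR, DESeq2 or limma-voom, nor at an unadjusted p under 0.05 (0 of 7 with each tool). The median log2 fold change of the members was -0.38, against 0.02 for all genes.

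Cps1 stood at 6048 and 7535 CPM in FF and at 3646 and 5283 CPM in KO livers. Otc stood at 907 and 1182 CPM in FF and at 607 and 717 CPM in KO livers. For both, each KO library lay below each FF library, and the log2 fold changes were -0.61 ± 0.18 (adjusted p = 0.033) and -0.66 ± 0.18 (adjusted p = 0.019). Neither call held without FF replicate 2 (0.26 and 0.21) or without KO replicate 1 (0.30 and 0.15), nor with library totals (-0.36 and -0.40, adjusted p = 0.12 and 0.086). With only the FF and KO libraries in the fit, that of Cps1 was lost (0.063).

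KO replicate 1 was below KO replicate 2 for all 7 members. Gls2 was at 237 and 324 CPM in FF, and at 143 CPM in KO replicate 1 but 310 in KO replicate 2, inside the FF range (-0.31 ± 0.30, adjusted p = 0.55). Asl was at 172 and 235 CPM in FF and at 112 and 182 in KO livers (-0.47 ± 0.19, adjusted p = 0.12), also overlapping. Without KO replicate 2, 5 members were called lower, Asl, Arg1 and Gls2 in addition, and without KO replicate 1 none was.

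Arg1 was at 1010 and 1146 CPM in FF and 649.7 and 1002 in KO livers (-0.38 ± 0.19, adjusted p = 0.20). Nags was at 47.9 and 56.4 CPM in FF and 35.5 and 44.8 in KO livers (-0.38 ± 0.17, adjusted p = 0.14). Both were lower in each KO library than in each FF library without passing the test. Slc25a15, the ornithine carrier, was at 375 and 500 CPM in FF and 374 and 580 in KO livers, which overlap (0.12 ± 0.19, adjusted p = 0.72). In all, 4 of 7 members did not overlap between the groups, each of them lower in KO, against 27.4% of all genes not overlapping and lower.

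Hepatocyte markers moved with these values: 7 of 12 were lower in KO livers, and their sum went from 131500 to 136500 CPM in FF to 78580 to 88440 CPM in KO livers. Macrophage markers summed to 641 to 668 CPM in FF and 797 to 885 CPM in KO livers, with 2 of 12 called, both higher. Alb fell 2.02-fold (-1.01 ± 0.17, adjusted p = 0.00093), and relative to it no tested member was lower in each KO library than in each FF library. Per 1000 Alb counts Cps1 was at 91.3 and 130.5 in FF and 127.6 and 161 in KO livers, and it overlapped, as did Asl and Gls2. Otc, called lower on the TMM scale, was at 13.7 and 20.5 per 1000 Alb counts in FF and 21.25 and 21.9 in KO livers. Otc, Arg1, Nags and Slc25a15 were higher in both KO libraries on this scale, Slc25a15 for example at 13.1 and 17.7 against 5.67 and 8.67. In whole liver, fewer hepatocytes and less RNA per hepatocyte cannot be told apart, and the part of these shifts in the members' levels was not tested.

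DKO against p53KO livers show the same deletion without p53. All 7 tested members fell, from 1.57-fold for Nags to 4.43-fold for Otc. The steps from ammonia capture to urea (Cps1, Otc, Asl, Arg1) and the glutaminase Gls2 fell 3.14-fold or more, while the carrier Slc25a15 and the activator's enzyme Nags fell 1.6-fold and 1.57-fold. Of all tested genes 25.7% were called lower and 25.7% higher here, and 7 of 7 members stand beside the 25.7% lower. Their median log2 fold change was -1.89, against 0.01 for all genes. None was called higher (0 of 7 also at an unadjusted p under 0.05, with edgeR, DESeq2 and limma-voom).

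Cps1 was at 7870 and 8364 CPM in p53KO and at 2728 and 2427 CPM in DKO livers (-1.65 ± 0.19, adjusted p = 1.7e-06). Otc was at 870.2 and 1031 CPM and at 221 and 208 CPM (-2.15 ± 0.19, adjusted p = 9.5e-08). These are the lowest Cps1 and Otc levels of the 12 libraries, and the 2 DKO libraries lie close together. Asl was at 274 and 254 CPM in p53KO and 59.2 and 65.8 in DKO livers (-2.08 ± 0.20, adjusted p = 7.3e-07), and Arg1 at 1264 and 1178 CPM and 287 and 336 CPM (-1.97 ± 0.20, adjusted p = 7e-07). Gls2 was at 264 and 288 CPM in p53KO and 71.7 and 76.9 in DKO livers (-1.89 ± 0.31, adjusted p = 0.00076). For each of these 5 genes both DKO libraries were below all other 10 libraries.

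Nags was at 36.3 and 45.4 CPM in p53KO and 27.9 and 24.0 in DKO livers (-0.65 ± 0.17, adjusted p = 0.004). Slc25a15 was at 484 and 561 CPM and at 342 and 310 CPM (-0.68 ± 0.19, adjusted p = 0.0075). The groups do not overlap for either, but both calls depend on the scaling or on 1 library. With library totals Nags was at 0.12 (adjusted p = 0.53) and Slc25a15 at 0.09 (0.66), both above 0, whereas the other 5 members stayed called lower, from -0.89 for Cps1 to -1.38 for Otc. With upper quartile scaling the call of Slc25a15 was lost (adjusted p = 0.052). Without p53KO replicate 2 both were lost (0.051 for Nags and 0.058 for Slc25a15), and without DKO replicate 3 that of Slc25a15 (0.060). All 7 members did not overlap between the groups, against 37.3% of all genes not overlapping and lower.

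Other cells of the liver moved in this comparison too. All 12 hepatocyte markers tested fell (10 with library totals), and their summed level went from 142600 to 143600 CPM in p53KO to 42520 to 46100 CPM in DKO livers. Of markers of other cells, 11 of 12 for macrophages, 10 of 10 for stellate cells and fibroblasts and 6 of 7 for bile duct cells rose. Endothelial markers went both ways, as Stab2, Kdr and Oit3 fell while Lyve1 and Cdh5 rose. The sum of all 10 went from 798.1 to 809.9 CPM in p53KO to 638.2 to 735.6 CPM in DKO livers. With library totals 7 of these 10 were higher. Macrophage markers summed to 586 to 623 CPM in p53KO and 1322 to 1382 in DKO livers, stellate and fibroblast markers to 381 to 397 and 1464 to 1529, and bile duct markers to 66.5 to 68.2 and 268 to 299.6. No marker of these lists was at 0 in either group. The part of these shifts in the members' fall was not tested.

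Albumin mRNA offers a scale within hepatocytes. Per 1000 Alb counts, Asl was at 3.84 and 3.54 in p53KO and 3.77 and 3.44 in DKO livers, Arg1 at 17.7 and 16.4 and at 18.2 and 17.5, and Gls2 at 3.69 and 4.02 and at 4.56 and 4.01. All 3 overlap between the groups on this scale, as does Otc, at 12.2 and 14.4 and at 14.1 and 10.8. Slc25a15 was at 6.77 and 7.83 per 1000 Alb counts in p53KO and 21.8 and 16.2 in DKO livers, and Nags at 0.508 and 0.634 and at 1.78 and 1.25. Cps1 was at 110 and 116.7 per 1000 Alb counts in p53KO and 173.6 and 126.6 in DKO livers, so that Slc25a15, Nags and Cps1 were higher in both DKO libraries on this scale. Alb itself fell 4.10-fold in the same comparison (-2.04 ± 0.18, adjusted p = 1.2e-07), so a value on this scale shows only how a gene moved relative to Alb.

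DKO TAM against p53KO TAM livers show the first 24 hours after tamoxifen, without p53. Gls2 fell 3.16-fold, Asl 1.77-fold and Nags 1.57-fold, while Cps1, Otc, Arg1 and Slc25a15 did not pass the test. Of all tested genes 10.1% were called lower and 8.61% higher, and 3 of 7 members lower stand beside the 10.1%. The members' median was -0.50, against 0.01 for all genes. None was called higher (0 of 7 also at an unadjusted p under 0.05, with edgeR, DESeq2 and limma-voom).

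Gls2 was at 307 and 295 CPM in p53KO TAM and 100.2 and 90.3 CPM in DKO TAM livers (-1.66 ± 0.31, adjusted p = 0.006). Asl was at 317 and 316 CPM and at 182 and 175 CPM (-0.82 ± 0.19, adjusted p = 0.0074). Nags was at 63.2 and 51.1 CPM and at 38.6 and 34.5 CPM (-0.65 ± 0.16, adjusted p = 0.011). In all 3 the groups lie apart, and the Gls2 levels in DKO TAM livers are near those of DKO livers. Without DKO TAM replicate 2 none of the 3 passed (0.066 for Gls2, 0.063 for Asl and 0.086 for Nags), and without p53KO TAM replicate 1 Asl (0.051) and Nags (0.15) did not. With library totals Nags was at -0.30 (adjusted p = 0.16), and Gls2 and Asl stayed called.

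Cps1 was at 4599 and 5018 CPM in p53KO TAM and 3388 and 3560 in DKO TAM livers (-0.47 ± 0.18, adjusted p = 0.083). Otc was at 525 and 637 CPM and at 473 and 346 CPM (-0.50 ± 0.18, adjusted p = 0.058), and it passed with DESeq2 (0.048) and limma-voom (0.044). Both genes were lower in each DKO TAM library than in each p53KO TAM library. Arg1 was at 979 and 890.3 CPM and at 711 and 969.5 CPM, which overlap (-0.15 ± 0.19, adjusted p = 0.63). Slc25a15 was at 509 and 514 CPM and at 400.3 and 487 CPM (-0.21 ± 0.19, adjusted p = 0.50). In all, 6 of 7 members did not overlap, each lower in DKO TAM, against 29.3% of all genes not overlapping and lower.

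At 24 hours Alb had fallen more than any member (-2.09 ± 0.18, adjusted p = 1.1e-06), and 7 of 12 hepatocyte markers were called lower (3 lower and 1 higher with library totals). Macrophage markers summed to 771 to 859.8 CPM in p53KO TAM and 966 to 982 in DKO TAM livers with 1 of 12 called, higher, and 0 of 10 stellate and fibroblast markers rose while 1 fell (3 rose and 1 fell with library totals). Of endothelial markers 5 of 10 fell, and their sum went from 857 to 919 CPM to 569.6 to 589 CPM. Per 1000 Alb counts every tested member was higher in both DKO TAM libraries, Cps1 for example at 192 and 216 against 63.6 and 68.8, and Gls2 least so, at 5.69 and 5.48 against 4.24 and 4.05. The part of these shifts in the members' levels was not tested.

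**Figure D2:**
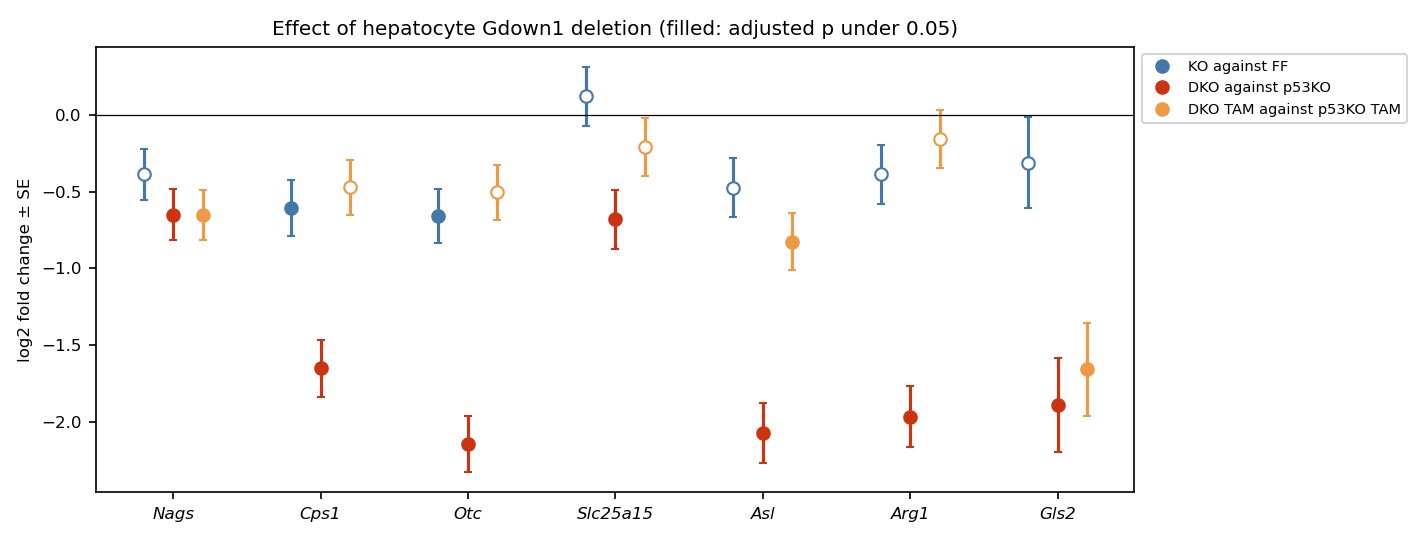
Log2 fold change of each tested member (y axis, with SE bars) in the 3 comparisons of deleted with control livers, filled where the adjusted p was under 0.05. All 7 members are filled and below 0 for DKO against p53KO, where Otc lies at -2.15, and Gls2 is the lowest point for DKO TAM against p53KO TAM, at -1.66.

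The effects themselves differed between the experiments for most members. The fall was larger in the pair without p53 than in the pair with p53 for 6 of 7 members (12.9% of all genes had a lower effect there by this test). The differences of log2 fold changes were -1.60 ± 0.27 for Asl (adjusted p = 0.00093), -1.59 ± 0.27 for Arg1 (0.00084), -1.58 ± 0.42 for Gls2 (0.027), -1.49 ± 0.25 for Otc (0.00068), -1.05 ± 0.26 for Cps1 (0.0078) and -0.80 ± 0.27 for Slc25a15 (0.043). Nags did not differ by this test (-0.26 ± 0.24, adjusted p = 0.46). With library totals 3 remained called, and Cps1 (adjusted p = 0.09), Slc25a15 (0.39) and Gls2 (0.064) did not. The call of Cps1 was also lost without KO replicate 2 (0.067), and those of Slc25a15 and Gls2 with only the libraries compared (0.063 and 0.067) and without any of several single libraries, of p53KO, DKO, FF or KO for Slc25a15 (up to 0.28) and of p53KO, DKO or FF for Gls2 (up to 0.090). Age and experiment differ along with p53 here, and their parts cannot be told apart.

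Between the lasting and the 24-hour deletion, both without p53, 4 members differed, Arg1 by -1.82 ± 0.27 (adjusted p = 2e-04), Otc by -1.64 ± 0.25 (0.00021), Asl by -1.25 ± 0.27 (0.0032) and Cps1 by -1.18 ± 0.26 (0.0027), each lower in DKO, against 14.2% of all genes lower. All 4 calls held when any 1 library was left out and with library totals. Gls2 (-0.23 ± 0.42, adjusted p = 0.72), Slc25a15 (-0.47 ± 0.27, adjusted p = 0.20) and Nags (0.00, adjusted p = 1) did not differ by this test. The levels of Gls2 were 71.7 to 76.9 CPM in DKO and 90.3 to 100.2 CPM in DKO TAM livers. Arg1 was at 287 to 336 CPM in DKO and 711 to 969.5 CPM in DKO TAM livers. The Cre (Alb-Cre or Alb-CreERT2), tamoxifen and experiment differ along with the time since deletion, and the age of the tamoxifen groups is not given. Their parts cannot be told apart. The control livers differed too, with Cps1 and Otc lower in p53KO TAM than in p53KO livers.

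Averaged over the 3 experiments in the same model, 6 of 7 members were lower (24.1% of all genes were called lower). The mean log2 fold changes were -1.29 ± 0.17 for Gls2, -1.12 ± 0.11 for Asl, -1.10 ± 0.10 for Otc, -0.91 ± 0.11 for Cps1, -0.84 ± 0.11 for Arg1 and -0.56 ± 0.10 for Nags, with adjusted p-values from 2.7e-07 to 0.00027. Slc25a15, at -0.25 ± 0.11 (adjusted p = 0.067), was the member that did not pass, and with library totals it stood at 0.20 and Nags lost its call (0.33).

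**Figure D3:**
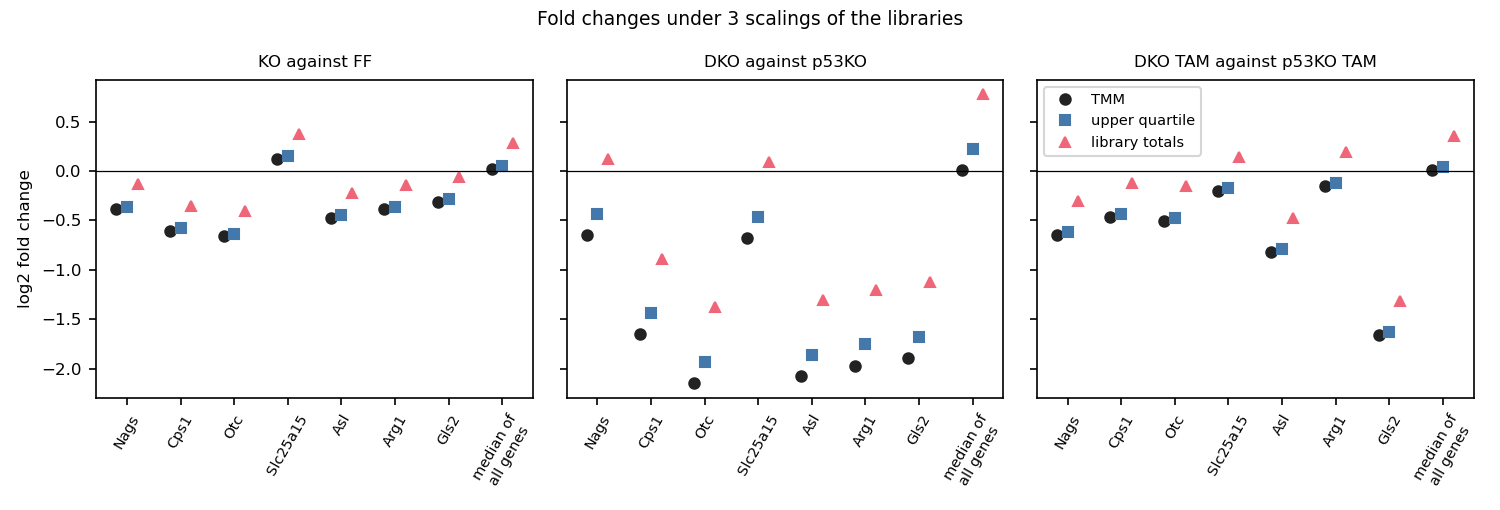
Log2 fold change (y axis) of each tested member and the median of all genes (x axis) under TMM, upper quartile and library total scaling, for the 3 comparisons. Library totals lift the points of a comparison together, and for DKO against p53KO Nags (0.12) and Slc25a15 (0.09) then lie above 0 while the other 5 members stay below it.

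Ratios of members within a library do not depend on the scaling. The ratio of Slc25a15 to Otc per length was 0.365 and 0.357 in p53KO and 1.01 and 0.979 in DKO livers, and 0.271 and 0.277 in FF and 0.404 and 0.531 in KO livers. Nags to Cps1 per length was 0.0103 and 0.0121 in p53KO and 0.0228 and 0.0220 in DKO livers. Both ratios overlapped within the tamoxifen pair. There Slc25a15 to Otc was 0.6354 and 0.529 in p53KO TAM and 0.5545 and 0.9217 in DKO TAM livers. Nags to Cps1 was 0.03055 and 0.02265 in p53KO TAM and 0.02534 and 0.02156 in DKO TAM livers. The p53KO TAM controls thus overlapped the DKO livers in Nags to Cps1. Cps1 to Otc, the paired steps of carbamoyl phosphate synthesis and use, was 4.36 and 3.91 in p53KO and 5.93 and 5.63 in DKO livers, but 4.22 and 3.79 in p53KO TAM and 3.45 and 4.95 in DKO TAM livers, which overlap. Of the summed FPKM of the members, Slc25a15 made up 4.17% to 4.64% in p53KO and 8.87% to 9.41% in DKO livers. Gls2 made up 4.90% to 5.24% in p53KO TAM and 1.96% to 2.39% in DKO TAM livers. The carrier, the activator's enzyme and Cps1 (51.1% to 55.1% against 49.8% to 50.8%) thus took larger shares in DKO than in p53KO livers. Otc, Asl, Arg1 and Gls2 took smaller ones. The share of Slc25a15 was also larger in KO (6.23% to 6.58%) than in FF livers (4.01% to 4.31%). In DKO TAM livers Slc25a15 (6.8% to 7.52% against 6.07% to 6.19%) and Arg1 took larger shares than in p53KO TAM livers. Gls2 and Asl (6.12% to 6.99% against 8.45% to 8.7%) took smaller ones there. These are unequal changes within a library.

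**Figure D4:**
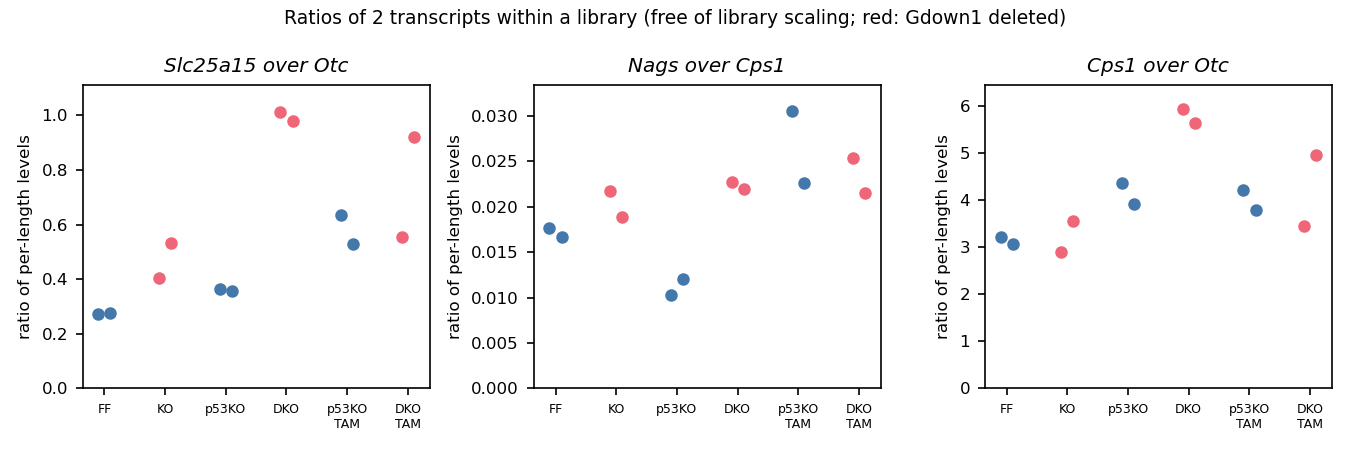
Ratios of levels per length of 2 members within a library (y axes, from 0), with 1 point per library in the 6 groups and red for deleted Gdown1. Slc25a15 over Otc rises from 0.36 in p53KO to about 1 in DKO, and Cps1 over Otc overlaps between the tamoxifen groups.

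Glutamine synthetase, Glul, the enzyme of the last rows of hepatocytes before the central vein, was at 723 and 828 CPM in FF and 328 and 181 in KO livers (-1.61 ± 0.22, adjusted p = 0.00023). It was at 845 and 926 CPM in p53KO and 240.2 and 255 in DKO livers (-1.84 ± 0.22, adjusted p = 8.5e-06). In the tamoxifen pair it was at 316 and 249.9 CPM in p53KO TAM and 353 and 352 in DKO TAM livers (0.32 ± 0.21, adjusted p = 0.33), and with library totals this was called higher (0.66, adjusted p = 0.043). The effect in DKO was lower than in DKO TAM by 2.15 ± 0.30 on the log2 scale (adjusted p = 0.00019). Control levels differed as well, since p53KO TAM livers held less Glul than p53KO livers (-1.65 ± 0.22, adjusted p = 0.00018).

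Car5a, the mitochondrial carbonic anhydrase that supplies bicarbonate to Cps1, fell in all 3 comparisons. It was at 31.4 and 36.9 CPM in FF and 15.2 and 15.0 in KO livers (-1.18 ± 0.22, adjusted p = 0.0016). It was at 26.1 and 28.3 CPM in p53KO and 4.99 and 2.73 in DKO livers (-2.81 ± 0.24, adjusted p = 8.7e-08), and at 26.8 and 26.3 CPM in p53KO TAM and 9.16 and 6.13 in DKO TAM livers (-1.78 ± 0.23, adjusted p = 4.9e-05). The groups do not overlap in any of them, and 25.2% of its exonic bases are shared with another gene. Glud1, glutamate dehydrogenase, was lower in DKO (-0.86 ± 0.15, adjusted p = 0.00021) and DKO TAM (-0.49 ± 0.15, 0.036) livers but not in KO (0.14 ± 0.15, 0.61), and with library totals neither call held (0.58 and 0.51). The DKO TAM call was also lost with only the libraries compared (0.060), without either p53KO TAM library (0.13 and 0.15) and without DKO TAM replicate 2 (0.29). The aspartate-glutamate carrier Slc25a13 was lower in DKO livers (-0.82 ± 0.20, adjusted p = 0.003), again not with library totals (0.81).

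Cad carries the cytosolic carbamoyl phosphate synthetase that feeds pyrimidine synthesis. It was at 10.2 and 10.9 CPM in p53KO and 16.8 and 21.1 in DKO livers (0.84 ± 0.19, adjusted p = 0.0016). After tamoxifen it was lower in DKO TAM livers, at 23.9 and 30.3 CPM against 44.1 and 37.6 (-0.60 ± 0.17, adjusted p = 0.018), a call lost with library totals (0.27), with DESeq2 (0.056), without p53KO TAM replicate 1 (0.18) and without DKO TAM replicate 1 (0.16). KO against FF gave -0.59 ± 0.20 (adjusted p = 0.064). The effect in DKO differed from that in KO by 1.43 ± 0.28 (adjusted p = 0.0019) and from that in DKO TAM by 1.44 ± 0.25 (0.00061). Arg2, the mitochondrial arginase, was at 1.88 and 0.429 CPM in p53KO and 3.30 and 4.87 in DKO livers (1.73 ± 0.53, adjusted p = 0.012), not called without p53KO replicate 2 (0.13) or DKO replicate 3 (0.096), and 20.1% of its exonic bases are shared with another gene. Oat, ornithine aminotransferase, was at 879 and 932 CPM and at 465 and 257 CPM (-1.32 ± 0.47, adjusted p = 0.049), and that call was lost in 8 of the alternatives, among them library totals (0.32) and leaving out either p53KO library (0.13 and 0.14) or DKO replicate 3 (0.21).

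Genes around the cycle were taken from lists, and some genes, such as Odc1, Azin1 and Hal, stand in more than 1 list. Of all tested genes, 7.88% were lower and 6.92% higher in KO, 25.7% and 25.7% in DKO and 10.1% and 8.61% in DKO TAM livers. With library totals, 550 and 2744 of 13693 genes were lower and higher in KO, 959 and 8823 in DKO and 586 and 4346 in DKO TAM livers. Of 17 tested genes listed under amino acid deamination, 5 were lower and 1 higher in KO livers. The counts were 16 and 1 in DKO and 9 and 1 in DKO TAM livers, and the medians -0.14, -0.93 and -0.50. The list reaches beyond deamination, as it holds Tdo2, Bckdha, Bckdhb and Dbt, all called lower in DKO livers. With library totals 6 were lower and 1 higher in DKO livers, 5 and 3 in KO and 5 and 2 in DKO TAM livers. Hal, histidine ammonia-lyase, fell in all 3 (-1.92 ± 0.34 in KO with adjusted p = 0.0058, -3.88 ± 0.36 in DKO with 2.7e-05, and -3.58 ± 0.36 in DKO TAM with 0.00025), except that the KO call was lost with only the libraries compared (0.12). Tat, tyrosine aminotransferase, fell too (-1.17 ± 0.18 with adjusted p = 0.00029, -2.23 ± 0.18 with 5e-08 and -1.25 ± 0.18 with 0.00014). Asrgl1, an asparaginase, was the gene that was higher with TMM (0.75 ± 0.22 with adjusted p = 0.032, 1.46 ± 0.23 with 5.5e-05 and 1.42 ± 0.24 with 0.00071), and its KO call was lost with DESeq2 (0.12), with only the libraries compared (0.058) and without FF replicate 1 (0.12), FF replicate 2 (0.15) or KO replicate 2 (0.30).

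Of 26 tested genes of nitrogen supply and ammonia handling, 4 were lower and 2 higher in KO, 14 and 7 in DKO and 3 and 3 in DKO TAM livers (medians -0.12, -0.45 and 0.14). The DKO TAM counts stand near the shares of all genes (10.1% lower and 8.61% higher). So do the counts called higher in KO (6.92% of all genes) and DKO livers (25.7%). With library totals 3 and 6, 9 and 12, and 2 and 10 were called. Rhbg, an ammonia transporter of hepatocytes near the central vein, stood at 7.68 and 7.42 CPM in FF and 18.3 and 22.3 in KO livers (1.42 ± 0.22, adjusted p = 0.00038), and at 3.35 and 3.13 CPM in p53KO TAM and 11.03 and 8.25 in DKO TAM livers (1.57 ± 0.26, adjusted p = 0.00049). In DKO against p53KO livers it was at 0.54 ± 0.23 (adjusted p = 0.057). Slc38a3, a glutamine carrier, was at 812 and 863 CPM in p53KO and 195 and 162 CPM in DKO livers (-2.23 ± 0.17, adjusted p = 2.1e-08). Slc1a4, a carrier of small neutral amino acids, rose in KO (2.32 ± 0.25, adjusted p = 1.1e-05) and DKO (2.97 ± 0.28, adjusted p = 2.4e-07) livers.

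Of 17 tested genes of the ornithine, arginine and proline side routes, 2 were lower and 0 higher in KO, 7 and 6 in DKO and 4 and 0 in DKO TAM livers (medians -0.20, 0.16 and -0.29), and with library totals 1 and 2, 2 and 9, and 2 and 0. In DKO livers Prodh, which starts proline breakdown, fell (-1.77 ± 0.18, adjusted p = 5.7e-07) while Aldh18a1, which starts proline synthesis, rose (2.33 ± 0.39, adjusted p = 9.3e-05). Of 9 polyamine genes 2 and 1, 2 and 3, and 1 and 0 were lower and higher (medians 0.10, 0.17 and -0.23), and with library totals 2 and 4, 1 and 5, and 0 and 1. Among them was Odc1, ornithine decarboxylase, higher in DKO livers (0.97 ± 0.17, adjusted p = 0.00014). Paox, polyamine oxidase, was lower in KO (-1.58 ± 0.34, adjusted p = 0.0049), DKO (-1.56 ± 0.31, 0.00048) and DKO TAM livers (-1.11 ± 0.32, 0.025, lost with library totals, 0.082, with DESeq2, 0.083, and without p53KO TAM replicate 1, 0.27, or DKO TAM replicate 1 or 2, 0.090 and 0.095). Of 10 pyrimidine genes 0 and 2, 1 and 6, and 1 and 2 were lower and higher (medians 0.60, 0.66 and 0.44), and with library totals 0 and 6, 0 and 10, and 0 and 6. Among them Uck1, a uridine-cytidine kinase, was higher in KO (1.07 ± 0.20, adjusted p = 0.0017), DKO (0.54 ± 0.19, 0.025) and DKO TAM livers (1.33 ± 0.20, 0.00028). Ctps, a CTP synthase, was higher in DKO livers (1.69 ± 0.24, adjusted p = 2.5e-05).

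Among 19 regulators reported for urea cycle genes, 7 were lower and 1 higher in KO, 13 and 1 in DKO and 2 and 1 in DKO TAM livers (medians -0.30, -0.82 and -0.27). With library totals 4 and 2, 6 and 6, and 1 and 6 were called. The higher gene is Trp53 in each comparison with TMM, and reads of its transcript are still counted in p53-/- livers. Gcgr, the glucagon receptor, stood at 86.5 and 81.1 CPM in FF and 55.9 and 48.8 in KO livers (-0.68 ± 0.13, adjusted p = 0.0021). It was at 74.2 and 80.4 CPM in p53KO and 25.05 and 24.43 in DKO livers (-1.64 ± 0.13, adjusted p = 4.2e-08), and at 69.6 and 63.6 CPM and 43.3 and 38.0 CPM in the tamoxifen pair (-0.71 ± 0.13, adjusted p = 0.0011). Cebpa, a transcription factor of hepatocytes, fell in DKO livers (-1.88 ± 0.17, adjusted p = 2.7e-07). It was lower in KO livers too (-0.55 ± 0.17, adjusted p = 0.038), a call lost with library totals (0.18) and without FF replicate 1 or 2 (0.13 each) or KO replicate 1 (0.29), and stood at -0.37 ± 0.17 (adjusted p = 0.15) in DKO TAM livers.

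Of the members, Cps1, Ass1, Asl, Arg1 and Gls2 were listed among genes of the portal side of the lobule. Otc, Nags and Slc25a15 were not. Of 10 other genes of that side, 3 were lower and 0 higher in KO, 6 and 1 in DKO and 7 and 0 in DKO TAM livers (medians -0.86, -2.19 and -1.35), among them Pck1, which starts gluconeogenesis (-2.38 ± 0.26 in DKO, adjusted p = 6.7e-06, and -1.55 ± 0.25 in DKO TAM, adjusted p = 0.0011). Their summed level was 8134 to 8332 CPM in p53KO and 1633 to 1944 in DKO livers, and 6585 to 6756 in p53KO TAM and 2139 to 2422 in DKO TAM livers. Of 16 genes of the central side, 6 were lower and 2 higher in KO, 11 and 1 in DKO and 3 and 3 in DKO TAM livers (medians -0.39, -1.34 and 0.25), and with library totals 5 and 2, 8 and 4, and 2 and 6. Their sum went from 18340 to 18890 CPM in p53KO to 2365 to 3195 CPM in DKO livers, so that both sides were lower there. This central sum was also lower in the tamoxifen pair, at 14420 to 15990 CPM in p53KO TAM and 6463 to 8372 in DKO TAM livers. In FF livers it was 15510 to 18220 CPM and in KO livers 5874 to 8150. The portal sum was 5593 to 7566 CPM in FF and 2357 to 3692 in KO livers. With library totals 5 portal genes were lower and 4 higher in DKO livers, and 7 and 0 in DKO TAM livers.

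**Figure D5:**
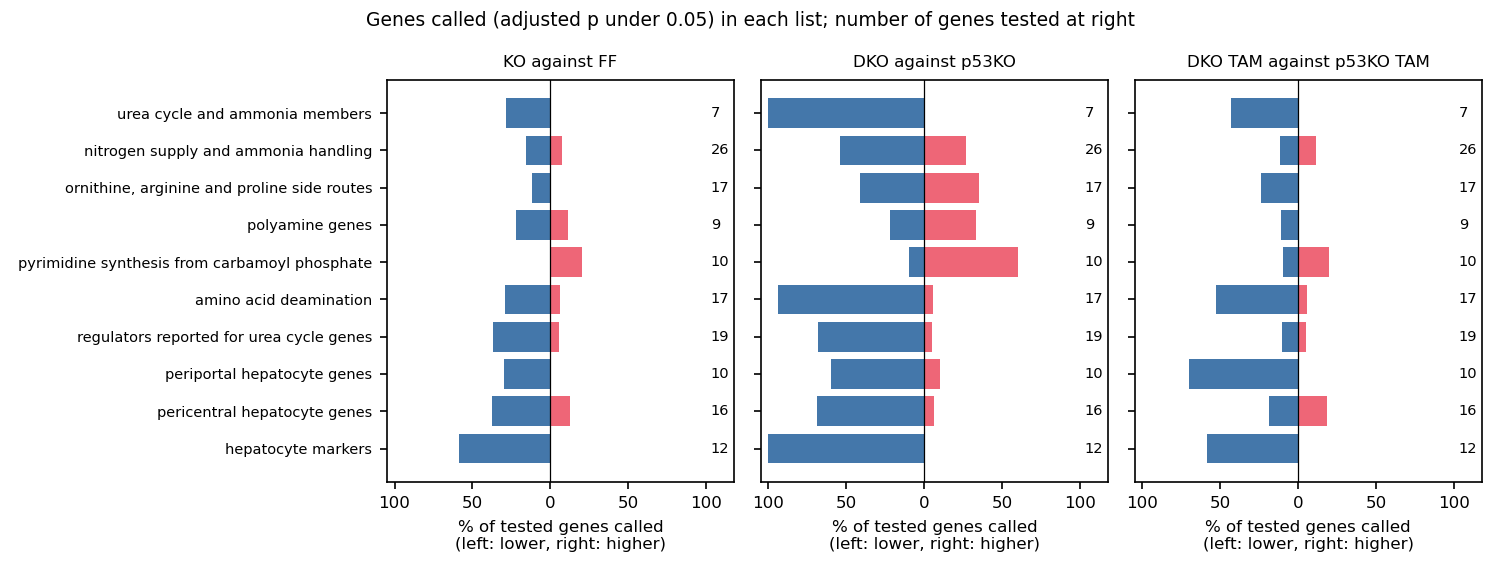
Share of the tested genes of each list called lower (bars to the left) or higher (bars to the right), in percent, for the 3 comparisons, with the number tested at the right edge. All 7 members and all 12 hepatocyte markers are lower for DKO against p53KO, and pyrimidine genes are mostly on the higher side.

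Control livers were compared as well. Between p53KO and FF livers 0 of 7 members were called, by edgeR, DESeq2 or limma-voom, with 0.862% of all genes called. At an unadjusted p under 0.05 edgeR and limma-voom had 1 member lower, which in edgeR was Nags (-0.36 ± 0.17, adjusted p = 0.42), and DESeq2 had 0. The log2 fold changes ran from -0.36 for Nags to 0.37 for Asl. Age and experiment differ along with p53 between these controls, and their parts cannot be told apart. Between p53KO TAM and p53KO livers Cps1 (-0.76 ± 0.18, adjusted p = 0.0096) and Otc (-0.71 ± 0.18, adjusted p = 0.012) were lower in the tamoxifen group, against 8.22% of all genes lower and 7.55% higher. Neither passed without p53KO TAM replicate 1 (0.10 and 0.15), and Otc did not without p53KO replicate 2 (0.082). Nags was at 0.49 ± 0.17 (adjusted p = 0.054) and Asl at 0.26 ± 0.19 (0.39). Tamoxifen and experiment differ together here, and the age of the tamoxifen group is not given, so their parts cannot be told apart. The comparisons within the tamoxifen pair thus start from a lower level of Cps1 and Otc than those within the 8-week pair.

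Across the 12 libraries the members varied together, with a Pearson r of each member's log2 CPM with the mean of the others from 0.805 for Slc25a15 to 0.921 for Arg1. The closest pair was Cps1 and Otc (r = 0.936) and the loosest Otc and Slc25a15 (0.642). The 5 other genes whose log2 CPM followed the members' mean best were Slc27a5 (r = 0.977), Apob (0.977), Slc26a1 (0.975), Ak3 (0.974) and Acox2 (0.974). The points share their groups and their scaling, so these correlations are descriptions.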

How the data were processed

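Total RNA of mouse liver was sequenced in 12 libraries with the SMARTer Stranded Total RNA kit, per the labels' protocols. The deposited values are raw counts by gene, 23420 genes in each file. Per the submitters' processing notes, CASAVA 1.82, HISAT2 and featureCounts were used with mm10 (GRCm38). Per the file headers of the 4 libraries of 7 weeks, featureCounts 1.6.4 summed exons over each gene, and its command line sets neither strand nor pairs nor overlaps, and the other 8 files give no program line. Without strand, reads of overlapping or antisense genes cannot be told apart. Groups are those of the titles, 2 libraries each, and DKO libraries keep their title numbers 2 and 3.

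The tests used edgeR 4.0.16 under R 4.3.3: filterByExpr (minimum count 10), TMM, 1 group-means model of 6 groups over 12 libraries with 6 residual degrees of freedom (common BCV 0.124), robust quasi-likelihood F test, and Benjamini-Hochberg adjustment over 13693 genes. Dividing a log2 fold change by the square root of its F gave the SE. FPKM was computed from TMM-scaled counts and the exonic lengths in the files. The pipeline was tested on simulated data.

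The members, the 16 other gene lists, the tests and the alternatives were chosen with earlier results of these data known. Named by rule were the members, Polr2m and Trp53, Alb, a set of isozymes and counterparts (Glul, Arg2, Oat, Cad, Glud1, Car5a, Slc25a13, Slc25a22), up to 4 genes per list with the smallest p in a contrast, genes against most of their list, and the 5 genes most like the members. Fewer are printed, and 1 counterpart is not reported here. Of 214 list entries 210 matched. Lists not fully described in the report gave these calls. Endothelial markers numbered 10 tested, with 1 higher in KO, and 2 higher and 3 lower in DKO (7 and 0 with library totals). In KO, stellate and fibroblast markers had 1 of 10 higher and bile duct markers 0 of 7, with 1 of 7 higher in DKO TAM. Lymphocyte markers had 0 of 2 called in each comparison, neutrophil markers 1 of 3 higher in DKO, and red cell markers 1 of 2 lower in DKO and in DKO TAM.

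Results were recomputed with RLE scaling, with upper quartiles, with library totals and without genes of haemoglobin or rRNA. No mitochondrial gene was among those left out. Further alternatives were no filter, a filter (mean count 10, and 1 CPM in 2 libraries), DESeq2 1.42.0 and limma-voom (limma 3.58.1). Fits were also made with only the libraries compared, with a replicate block and with each library left out. Calls were also counted at an adjusted p under 0.01. A library floor of 3 counts is 0.254 to 0.677 CPM.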

Additional observations from a re-analysis of the deposited data

Results flagged for a closer look

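The effect of Gdown1 deletion differed between experiments, by a test of the difference itself, for 6 members between the pairs without and with p53. Of all tested genes, 12.9% had a lower effect in the pair without p53 by this test, and 14.2% had a lower effect in DKO than in DKO TAM livers. These differences of log2 fold changes, DKO effect minus KO effect, were -1.05 for Cps1 (edgeR adjusted p = 0.0078), -1.49 for Otc (0.00068), -1.60 for Asl (0.00093), -1.59 for Arg1 (0.00084), -0.80 for Slc25a15 (0.043) and -1.58 for Gls2 (0.027). Between the lasting and the 24-hour deletion, both without p53, 4 members differed, Cps1 by -1.18 (adjusted p = 0.0027), Otc by -1.64 (0.00021), Asl by -1.25 (0.0032) and Arg1 by -1.82 (2e-04). In both sets the fall was the larger one in DKO livers. With library totals Cps1, Slc25a15 and Gls2 did not stay called in the first set, whereas all 4 of the other set did. Slc25a15 and Gls2 also lost their calls in the first set with only the libraries compared. Age and experiment differ along with p53, and Cre, tamoxifen and experiment along with the time since deletion. These parts cannot be told apart.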

How the results depend on the processing

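With 2 libraries per group, single libraries decide many calls. For DKO against p53KO the 7 members called lower became 5 with library totals, 6 with upper quartile scaling and 5 to 7 when 1 library was left out, and stayed 7 in the other alternatives. For KO against FF the 2 members called lower became 0 with library totals, 1 with only the libraries compared, 0 at an adjusted p under 0.01, and 0 to 5 when 1 library was left out. Over all genes, 1079 of 13693 were lower with TMM, 550 with library totals and 996 of 11987 with only the libraries compared. In the tamoxifen pair the 3 members called lower became 4 with DESeq2 or limma-voom. Nags lost its call there with library totals and at an adjusted p under 0.01. Of all 13693 genes, 1380 were lower in that pair with TMM, 586 with library totals, 1131 with DESeq2 and 1431 with limma-voom. For DKO TAM against p53KO TAM the 3 became 0 to 4 when 1 library was left out (1 without p53KO TAM replicate 1, 0 without DKO TAM replicate 2). For DKO effect minus KO effect the 6 became 3 with library totals, 4 with only the libraries compared or at an adjusted p under 0.01, 5 with RLE, upper quartile scaling, no filter, the filter of 1 CPM or limma-voom, and 4 to 6 when 1 library was left out. Of 13693 genes, 1772 had a lower effect with TMM, 499 with library totals, 1632 with RLE, 1077 with upper quartile scaling and 1756 with limma-voom. These were 1703 of 13385 with only the libraries compared, 1731 of 19235 with no filter and 1645 of 12678 with the filter of 1 CPM. For p53KO TAM against p53KO the 2 called lower became 1 with the replicate block, 1 at an adjusted p under 0.01 and 0 to 2 when 1 library was left out, and the 0 called higher became 1 with upper quartile scaling, library totals or no filter and 0 to 1 when 1 library was left out. Of 13693 genes, 1125 were lower with TMM and 666 with the block. Higher were 1034 with TMM, 1407 with upper quartile scaling, 1164 with library totals and 1035 of 19235 with no filter.

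None of the values with a reversed sign was called, although 3 of them, Nags, Slc25a15 and Polr2m for DKO against p53KO, were called lower with TMM. With library totals Nags stood at 0.12, Slc25a15 at 0.088 and Polr2m at 0.068 for DKO against p53KO, Arg1 at 0.19 and Slc25a15 at 0.14 for DKO TAM against p53KO TAM, Nags at 0.25 for DKO effect minus KO effect, Nags at 0.42 and Gls2 at 0.19 for DKO effect minus DKO TAM effect, Slc25a15 at 0.022 for p53KO TAM against p53KO (0.069 with upper quartile scaling) and at 0.20 for the mean effect. The main value of 0.00 of Nags for DKO effect minus DKO TAM effect was 0.03 with RLE, 0.18 with upper quartile scaling, 0.032 with the filter of 1 CPM, 0.024 with DESeq2, 0.005 with limma-voom, 0.03 with only the libraries compared, and -0.18 to 0.15 when 1 library was left out. Leaving out 1 library gave -0.24 to 0.40 for Slc25a15 and -0.99 to 0.14 for Gls2 in KO against FF, -0.39 to 0.053 for Arg1 in DKO TAM against p53KO TAM, -0.31 to 0.068 for Otc and -0.23 to 0.22 for Gls2 in p53KO against FF, and -0.14 to 0.078 for Slc25a15 in p53KO TAM against p53KO. The cause of these changes was not tested.

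No label says what the replicate numbers share, and with 2 libraries per group they were not taken as pairs. Deviations of libraries with the same number correlated at 0.11 (FF and KO), -0.07 (p53KO and DKO) and -0.01 (tamoxifen groups). With the replicate block 3 members in place of 2 were called lower for KO against FF, with Asl added (-0.49, adjusted p = 0.026), 7 in place of 6 for the mean effect, and Gls2 stood at 0.32 for p53KO against FF. Besides these and the count of 1 for p53KO TAM against p53KO given above, the block left the counts of members called lower as they were (7, 3, 6, 4 and, for p53KO against FF, 0), and Oat lost its call (adjusted p = 0.077).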
